A study of Mus musculus with 8 samples.

Results

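The 10 genes described here mark the identity of cortical interneurons by means other than their peptides. They were chosen by symbol from the 54532 genes of the count table, and all 10 (Pvalb, Calb1, Calb2, Reln, Lamp5, Lhx6, Sox6, Adarb2, Dlx1 and Erbb4) passed the filter on low counts, which left 17195 genes for testing. RNA was sequenced from the dissected cortex of 8 C57BL/6 mice at 8 mo of age, with 1 library per mouse. The 4 PS19 mice carry a human 1N4R tau transgene with the P301S mutation under the mouse prion protein promoter. The 4 Adrb1+/m;PS19 mice carry the same transgene and 1 knock-in copy of Adrb1 with the A187V mutation. Both groups therefore carry mutant human tau, which this promoter drives beyond interneurons, and neither lacks the transgene. In the order used for all values below, the PS19 mice are m677, m668, m665 and m659 and the Adrb1+/m;PS19 mice are m671, m661, m660 and m658. The libraries held 14653222 to 21223754 counts. Markers of cortical excitatory neurons summed to 1416 to 1788 CPM (normalized counts, scaled to a common library size) over 8 genes, and markers of neighbouring regions such as the striatum were counted as well.

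Cortical interneurons are the inhibitory, GABA-releasing neurons of the cortex, born in the ganglionic eminences of the ventral forebrain. Cells from the medial ganglionic eminence switch on Lhx6 and then Sox6, and many of them become fast-spiking cells that are filled with the calcium buffer parvalbumin (Pvalb). Cells from the caudal ganglionic eminence tend to express Adarb2 and include calretinin (Calb2) cells and many of the neurogliaform cells that express Lamp5 and Reln. Dlx1 and the neuregulin receptor Erbb4 are used by both lineages. Several of these genes are also used by other cells. Examples are Calb1 and Lamp5 in excitatory neurons, Calb1 in striatal projection neurons and Sox6 in oligodendrocyte precursors. In RNA from whole tissue, fewer cells of a type and less RNA per cell cannot be told apart.

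No interneuron identity gene passed the test between the genotypes. By edgeR's quasi-likelihood test, 0 of the 10 genes had an unadjusted p-value under 0.05, against 2.80% of all genes tested (1.42% higher and 1.37% lower in Adrb1+/m;PS19 mice), and 0 had an adjusted p-value under 0.05. DESeq2, which called 1.65% of its genes, and limma-voom also gave 0 of the 10 genes at an unadjusted p-value under 0.05. The log2 fold changes (Adrb1+/m;PS19 minus PS19) had a median of -0.03, with 7 genes lower and 3 higher, and the median over all genes tested was 0.00046. Their median size was 0.04, against 0.07 over all genes tested. These medians were not matched for abundance, so they do not show that the members changed less than other genes. In all 10 genes the CPM ranges of the genotypes overlapped, where 2.02% of all genes tested had ranges that did not. The 10 genes differed from each other in how far mice of the same genotype lay apart, and in the markers of other cells with which they went up and down from mouse to mouse.

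**Figure D1:**
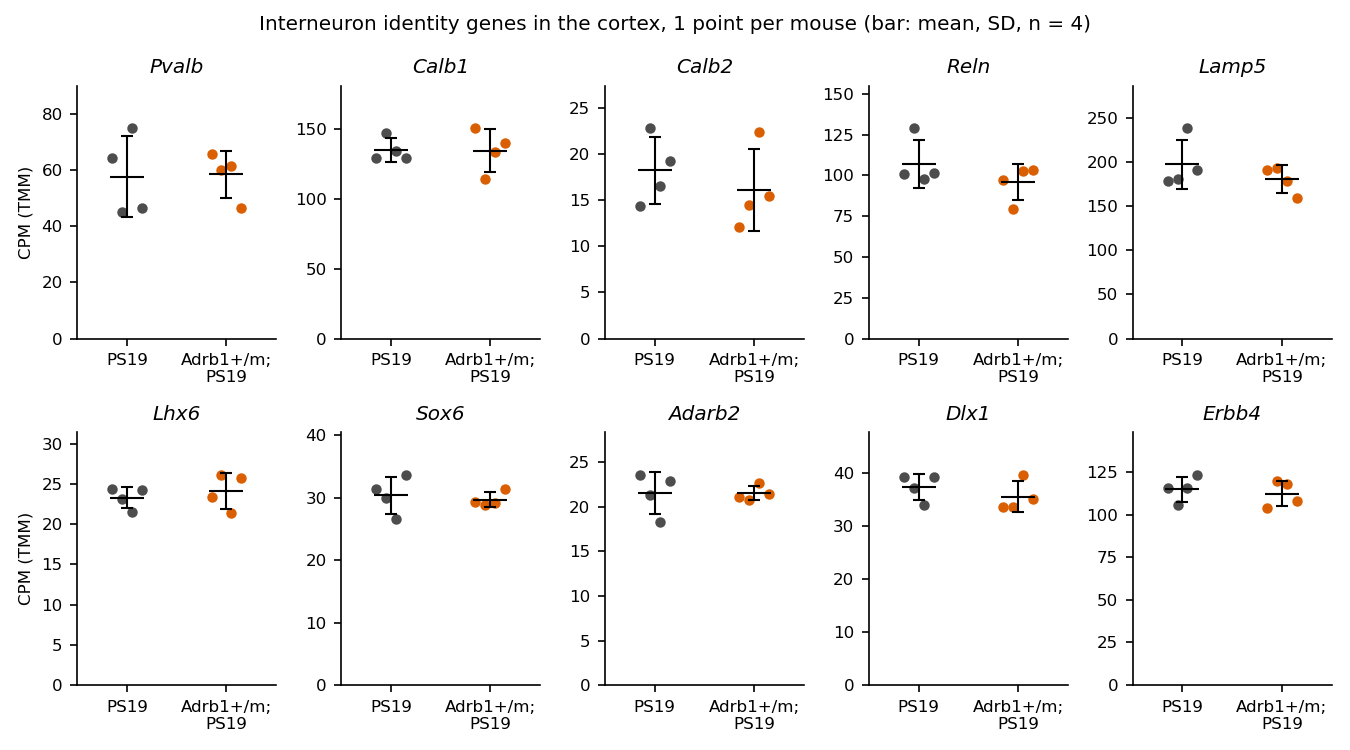
Normalized counts (CPM, vertical axes from 0) of the 10 genes in each mouse, with the mean and SD of each genotype (n = 4 mice). The genotypes overlap in all 10 panels, and Pvalb in PS19 mice is spread from 45.1 to 74.9 CPM.

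Pvalb and Calb2, both calcium-binding proteins, were the members with the widest spread between mice. Pvalb (ENSMUSG00000005716, chromosome 15 of GRCm38, 78191114 to 78206400) encodes the EF-hand calcium buffer of fast-spiking basket and chandelier cells. It was at 64.2, 45.1, 74.9 and 46.3 CPM in the PS19 mice and at 65.7, 60.1, 61.5 and 46.5 CPM in the Adrb1+/m;PS19 mice. The values lay in 2 bands, 3 mice at 45.1 to 46.5 CPM and 5 at 60.1 to 74.9 CPM, with both genotypes in each, and the PS19 range enclosed the Adrb1+/m;PS19 range. The means were 57.6 ± 14.4 CPM in PS19 and 58.5 ± 8.31 CPM in Adrb1+/m;PS19 mice (SD, n = 4 each). On the log2 scale the difference was 0.02 ± 0.15 (SE), with a 95% interval of -0.30 to 0.33 (edgeR quasi-likelihood p = 0.917, 2-sided exact permutation p = 0.857). The sign was not settled, since it turned negative without any 1 of the mice m668, m659, m671 and m660.

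Calb1 (ENSMUSG00000028222, chromosome 4, 15881264 to 15908064) encodes calbindin, a larger EF-hand buffer. Its level was 129.6, 147, 134 and 129.9 CPM in the PS19 mice and 151, 114, 134 and 141 CPM in the Adrb1+/m;PS19 mice. The highest mouse, m671, and the lowest, m661, were both Adrb1+/m;PS19. Adrb1+/m;PS19 minus PS19 came to -0.0047 ± 0.08 (SE) on the log2 scale, with a 95% interval of -0.17 to 0.16.

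Calb2 (ENSMUSG00000003657, chromosome 8, 110137502 to 110168210) encodes calretinin, which labels bipolar cells of the caudal lineage. It was counted 202 to 401 times per mouse, less than any other member in 6 of the 8 mice. It was at 14.4, 22.8, 16.5 and 19.3 CPM in the PS19 mice and at 12.1, 14.5, 22.4 and 15.5 CPM in the Adrb1+/m;PS19 mice. Mouse m660 stood with the higher PS19 mice, and the other Adrb1+/m;PS19 mice had 12.1 to 15.5 CPM. Adrb1+/m;PS19 minus PS19 came to -0.17 ± 0.18 (SE) on the log2 scale, with a 95% interval of -0.55 to 0.20 (edgeR p = 0.339, exact permutation p = 0.429). Single mice moved it both ways, to -0.37 without m660 (unadjusted edgeR p of 0.0273) and to -0.052 and -0.063 without m668 and m671 (unadjusted edgeR p of 0.772 and 0.724).

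Reln and Lamp5 are both found in neurogliaform cells of the upper cortex. Reln (ENSMUSG00000042453, chromosome 5, 21884454 to 22344702) encodes reelin, a secreted protein that guides cortical layering in development. Its level was 101, 129, 97.6 and 101 CPM in the PS19 mice and 97.5, 79.6, 103 and 103 CPM in the Adrb1+/m;PS19 mice. Mouse m668 was the highest and m661 the lowest, and the other 6 mice lay between 97.5 and 103 CPM. The means were 107 ± 14.7 CPM in PS19 and 95.8 ± 11.1 CPM in Adrb1+/m;PS19 mice (SD, n = 4 each). The difference of -0.16 ± 0.10 (SE) on the log2 scale had a 95% interval of -0.37 to 0.05 and the smallest unadjusted edgeR p of the 10 genes, 0.120. It was -0.061 without m668 and -0.081 without m661.

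Lamp5 (ENSMUSG00000027270, chromosome 2, 136052239 to 136069917) encodes a neuronal relative of the lysosomal membrane proteins. It was at 179, 181, 239 and 192 CPM in the PS19 mice and at 191, 194, 179 and 159.6 CPM in the Adrb1+/m;PS19 mice. Mouse m665 lay above the other 7 mice and m658 below them. Between the genotypes Lamp5 differed by -0.13 ± 0.09 (SE) on the log2 scale, with a 95% interval of -0.32 to 0.06 (edgeR p = 0.175, exact permutation p = 0.371). When edgeR was run without the filter on low counts, Reln and Lamp5 had unadjusted p-values of 0.0162 and 0.0393 at log2 fold changes of -0.16 and -0.13. In that run 4.06% of 33614 genes were called. With the filter, Lamp5 was at -0.022 without m665 and at -0.073 without m658.

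The regulators of the lineages were steadier. Lhx6 (ENSMUSG00000026890, chromosome 2, 36081953 to 36105408) encodes the LIM homeodomain factor of the medial lineage. It was at 24.4, 23.1, 21.5 and 24.2 CPM in the PS19 mice and at 23.4, 26.1, 21.3 and 25.8 CPM in the Adrb1+/m;PS19 mice. Mice m661 and m658 lay above all PS19 mice and m660 below them. On the log2 scale the difference was 0.05 ± 0.08 (SE), with a 95% interval of -0.13 to 0.24. Sox6 (ENSMUSG00000051910, chromosome 7, 115470872 to 116038796) encodes an HMG-box factor that acts after Lhx6. It ranged from 26.6 CPM in m665 to 33.7 CPM in m659, both PS19 mice, and the Adrb1+/m;PS19 mice had 29.3, 28.9, 29.1 and 31.4 CPM. Between the genotypes Sox6 differed by -0.03 ± 0.08 (SE) on the log2 scale, with a 95% interval of -0.20 to 0.14.

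Adarb2 (ENSMUSG00000052551, chromosome 13, 8202866 to 8768747) encodes a member of the RNA-editing adenosine deaminase family and is a widely used marker of the caudal lineage. It was at 23.6, 21.3, 18.4 and 22.9 CPM in the PS19 mice and at 21.2, 20.8, 22.7 and 21.5 CPM in the Adrb1+/m;PS19 mice. As for Sox6, the PS19 mice held both the highest and the lowest value. The genotype means differed by 0.0019 ± 0.09 (SE) on the log2 scale, with a 95% interval of -0.19 to 0.19.

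Dlx1 (ENSMUSG00000041911, chromosome 2, 71528113 to 71533981) encodes a homeodomain factor of both eminences. It ranged from 33.5 CPM in m671 to 39.7 CPM in m660, both Adrb1+/m;PS19 mice, and the genotypes differed by -0.07 ± 0.08 (SE) on the log2 scale, with a 95% interval of -0.24 to 0.09. The antisense gene Dlx1as shares 335 exonic bases with it, 6.21% of the exonic length of Dlx1, and was counted 42 to 92 times per mouse against 538 to 721 for Dlx1. The strand setting of the counting is not given in the sources used here, so reads of the shared bases cannot be told apart. Erbb4 (ENSMUSG00000062209, chromosome 1, 68032186 to 69108059) encodes the receptor tyrosine kinase through which neuregulins act on interneurons. It was at 116, 106, 115 and 123 CPM in the PS19 mice and at 104, 119.6, 118 and 108 CPM in the Adrb1+/m;PS19 mice. Mice m668, m671 and m658 were the lowest 3, from both genotypes. The difference between the genotypes, -0.03 ± 0.06 (SE) on the log2 scale, had a 95% interval of -0.17 to 0.10.

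**Figure D2:**
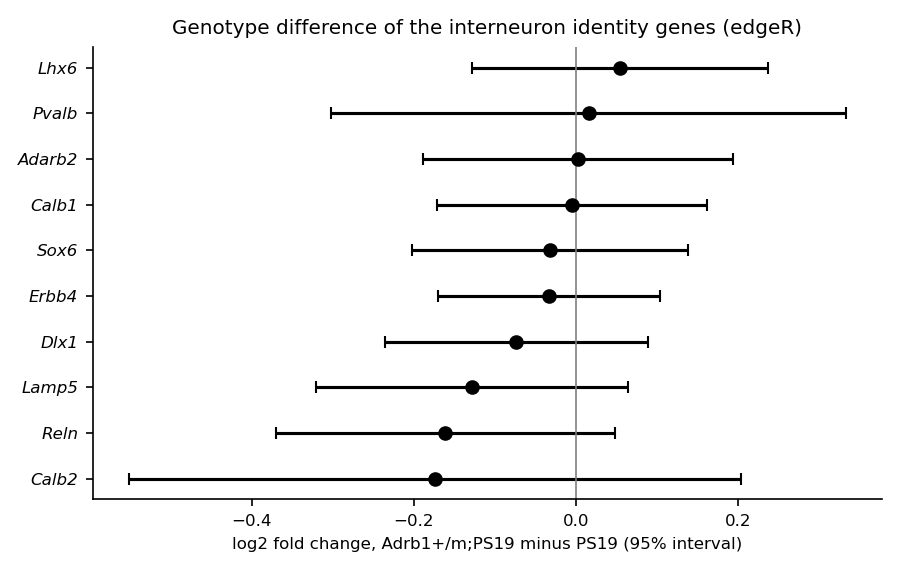
Log2 fold change (horizontal axis, Adrb1+/m;PS19 minus PS19, edgeR) of each gene with its 95% interval, from 4 mice per genotype. All 10 intervals include 0, and they are widest for Calb2 (-0.55 to 0.20) and Pvalb (-0.30 to 0.33).

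The intervals show how large a difference these libraries could have hidden. On the linear scale they ran from 0.682 to 1.15 of the PS19 level for Calb2 and from 0.811 to 1.26 for Pvalb. For Erbb4, the most tightly measured member, they ran from 0.889 to 1.07. The exact permutation p of the 10 genes lay between 0.371 and 0.971, and 4 mice against 4 cannot give less than 0.0286.

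To compare levels between genes, CPM was divided by the gene length in kilobases (RPKM). That length counts every annotated exonic base of a gene, so it can exceed the length of a single transcript. The order below holds for that length, and levels per transcript were not computed. Lamp5 and Pvalb had the highest levels, with 64.5 ± 7.78 and 55.8 ± 10.5 RPKM (SD, n = 8), and their ranges over the mice overlapped. Calb1 followed with 27.9 RPKM, below every value of Pvalb. Calb2 and Erbb4, with 9.87 and 9.20 RPKM, overlapped with each other and lay below Calb1. Dlx1 had 6.76 RPKM, and Lhx6 and Reln, which overlapped, had 4.94 and 4.28 RPKM. Sox6 and Adarb2 were the lowest with 2.02 and 1.64 RPKM and overlapped with each other. Of the 9 pairs of neighbours in this order, 5 had ranges that did not overlap. The gene length in the table was 23738 bases for Reln and 1041 for Pvalb, so that Reln had more CPM and fewer RPKM than Pvalb.

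The spread between mice of the same genotype was wide for Calb2, Pvalb, Reln, Lamp5 and, less so, Calb1, and near that of other genes for the lineage regulators and Erbb4. The coefficient of variation within a genotype was 23.6% for Calb2 and 20.3% for Pvalb, where genes of similar abundance (mean CPM within 1.5-fold) had medians of 9.64% and 6.35%. It was 12.8% for Reln, 12.0% for Lamp5 and 9.20% for Calb1, against 5.58%, 5.22% and 5.40%. Of the genes of similar abundance, 98.3% varied less than Pvalb, 97.3% less than Calb2, 95.4% less than Reln, 95.2% less than Lamp5 and 87.9% less than Calb1. Lhx6, Sox6, Adarb2, Dlx1 and Erbb4 varied by 6.56% to 8.10%, and 41.5% to 65.9% of the genes of similar abundance varied less. Counting error alone would give 5.76% for Calb2 and 3.10% for Pvalb. Between the lowest and the highest mouse, Calb2 differed 1.89-fold and Pvalb 1.66-fold, against 1.19-fold for Dlx1 and 1.23-fold for Lhx6.

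**Figure D3:**
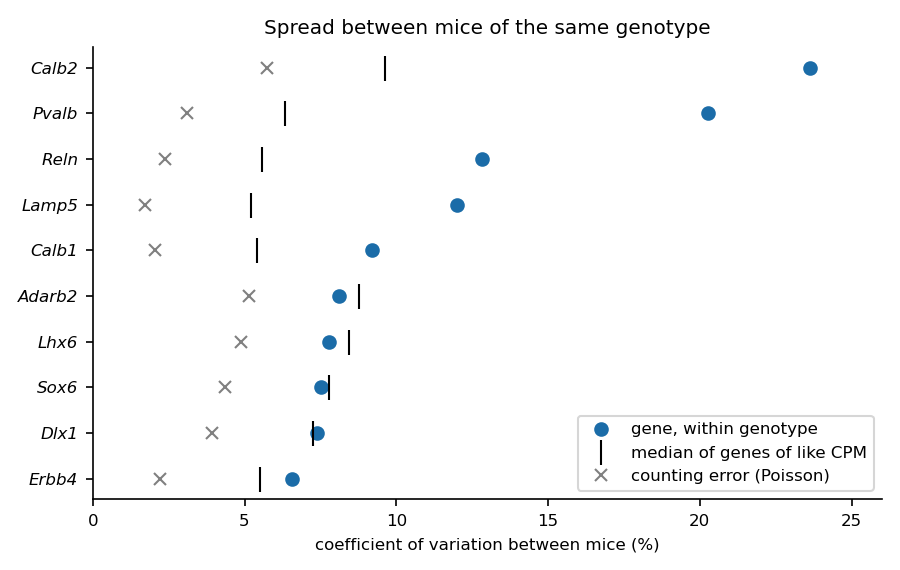
Coefficient of variation between mice of the same genotype (horizontal axis, percent) of each gene, beside the median of genes of similar CPM and the value that counting error alone would give. Calb2 at 23.6% and Pvalb at 20.3% lie far to the right of their medians of 9.64% and 6.35%, and the lineage regulators lie near theirs.

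Pvalb followed the markers of oligodendrocytes, the cells that make myelin, from mouse to mouse. The oligodendrocyte list holds 5 genes, among them Mbp, Mog, Mag and Mobp, and its score is the mean over these genes of the log2 CPM minus the mean over the 8 mice. The score was 0.16, -0.21, 0.23 and -0.17 in the PS19 mice and 0.09, -0.0023, 0.04 and -0.14 in the Adrb1+/m;PS19 mice. The 3 mice with the least Pvalb, m668, m659 and m658, were the 3 with the lowest scores, and m665 was the highest in both. Over the 8 mice the score and Pvalb had r = 0.98 and rho = 0.98 (exact permutation p = 0.000149 and 0.000397, adjusted p = 0.0179 and 0.0476). This was 1 of 120 relations computed between the 10 genes and 12 lists of other cells, and the only one with an adjusted p under 0.05. It was 0.98 after each genotype was centred on its mean and 0.96 without the 2 mice farthest from the median, m668 and m665. The summed level of the 5 genes was 4637 to 6249 CPM in PS19 and 4857 to 5795 CPM in Adrb1+/m;PS19 mice, and none of the 5 was called between the genotypes.

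The single genes behind this relation were examined after it had been seen, together with 14 other genes of the medial lineage. Each of the 5 oligodendrocyte genes went with Pvalb, with r from 0.91 for Mbp to 0.98 for Mog (exact permutation p = 0.000223 for Mog, adjusted p = 0.00266 over 33 relations). The 33 relations also hold those of 7 striatal genes with Calb1 and with Erbb4. Every relation of the oligodendrocyte and striatal genes had an unadjusted p under 0.05, and these genes were taken because their lists had gone with the members. Their presence lowers the adjusted p of the medial genes, which is therefore not an adjustment over the medial genes alone. The 14 genes of the medial lineage divided into 7 with a positive and 7 with a negative r. Syt2, a vesicle calcium sensor of fast-spiking terminals, had r = 0.85 and rho = 0.81 (exact permutation p = 0.00620 and 0.0218, adjusted p = 0.0181 and 0.0399). Unc5b, a netrin receptor, had r = 0.79 and rho = 0.76 (exact permutation p = 0.0101 and 0.0368, adjusted p = 0.0181 and 0.0551). Cox6a2, a mitochondrial subunit found in Pvalb cells, had r = 0.72 and rho = 0.60 (exact permutation p = 0.0484 and 0.132, adjusted p = 0.0665 and 0.182). Elfn1, a synaptic adhesion protein of somatostatin cells, had r = -0.79 and rho = -0.76 (exact permutation p = 0.0104 and 0.0368, adjusted p = 0.0181 and 0.0551). Nos1, the neuronal nitric oxide synthase, had r = -0.76 and rho = -0.71 (exact permutation p = 0.0229 and 0.0576, adjusted p = 0.0343 and 0.0826). The potassium channels of fast-spiking cells, Kcnc1 and Kcnc2, had r = 0.36 and 0.29. Over the 8 mice Lhx6, which Pvalb cells express, had r = -0.43 with Pvalb. The part of the oligodendrocyte markers in the level of Pvalb was not tested.

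Calb1 and Erbb4 followed the markers of striatal projection neurons in opposite directions. The striatal list holds 7 genes, among them Drd1, Drd2, Ppp1r1b, Adora2a and Pde10a, and its summed level was 769, 1567, 1131 and 831 CPM in the PS19 mice and 1735, 798, 1198 and 1434 CPM in the Adrb1+/m;PS19 mice. The 3 mice with the highest summed level of these markers, m671, m668 and m658, had the most Calb1 and the least Erbb4. Calb1 and the striatal score had r = 0.87 and rho = 0.95 (exact permutation p = 0.00188 and 0.00114, adjusted p = 0.113 and 0.0685). Their r was 0.94 with the genotypes centred and 0.88 without the 2 mice farthest from the median, m677 and m671. Erbb4 and the striatal score had r = -0.88 and rho = -0.79 (exact permutation p = 0.00965 and 0.0279, adjusted p = 0.193 and 0.335). Their r was -0.88 with the genotypes centred and -0.92 without the 2 mice farthest from the median, m677 and m671. Neither relation passed the adjustment over 120 relations. Taken singly, after the list had been seen, the 7 striatal genes had r from 0.71 to 0.91 with Calb1 and from -0.89 to -0.83 with Erbb4. All 7 striatal genes had higher means in Adrb1+/m;PS19 mice (median difference 0.32 on the log2 scale), and none was called. That median ran from 0.12 without m671 and 0.17 without m677 to 0.50 without m661 and 0.59 without m668. Their part in the levels of Calb1 and Erbb4 was not tested.

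**Figure D4:**
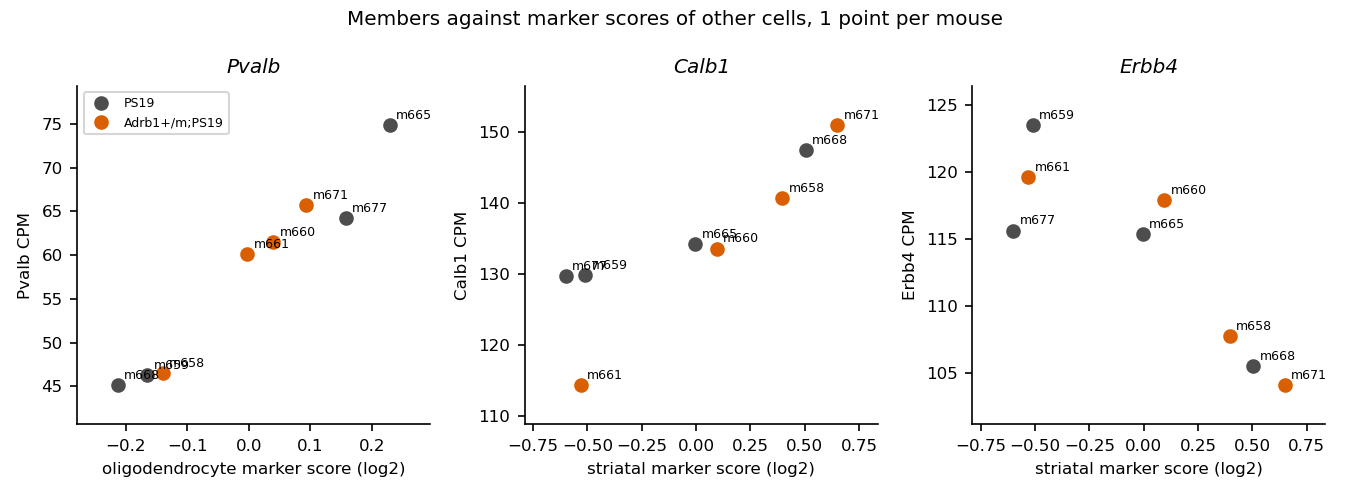
CPM of Pvalb, Calb1 and Erbb4 (vertical axes, not from 0) against the marker score of oligodendrocytes or striatal neurons (horizontal axes, log2 scale), 1 named point per mouse. Pvalb climbs with the oligodendrocyte score (r = 0.98), Calb1 climbs with the striatal score (r = 0.87) and Erbb4 descends with it (r = -0.88), with both genotypes along each trend.

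Glial markers went with Adarb2, Sox6 and Dlx1, without passing adjustment over the 120 relations. The scores of oligodendrocyte precursors, astrocytes and microglia ordered the mice much alike. Each was positive in m677, m659, m660 and m658, negative in the other mice and lowest in m661. Relations with these scores are therefore not separate from each other. Adarb2 and the score of oligodendrocyte precursors (Pdgfra, Cspg4, Olig2, Gpr17, C1ql1 and Vcan) had r = 0.84 and rho = 0.93 (exact permutation p = 0.00506 and 0.00223, adjusted p = 0.189 and 0.0893). With the astrocyte score Adarb2 had r = 0.78 and rho = 0.86 (exact permutation p = 0.00744 and 0.0107, adjusted p = 0.189 and 0.321). With the microglia score it had r = 0.81 and rho = 0.81 (exact permutation p = 0.00789 and 0.0218, adjusted p = 0.189 and 0.327). These 3 relations of Adarb2 had r of 0.87, 0.72 and 0.66 without the 2 mice farthest from the median of the score. Sox6, which precursors of oligodendrocytes also express, had r = 0.76 and rho = 0.81 (exact permutation p = 0.0275 and 0.0218, adjusted p = 0.330 and 0.327) with the precursor score, and its r was 0.56 without the 2 mice farthest from the median, m665 and m661. The precursor markers summed to 167 to 215 CPM in PS19 and 163 to 198 CPM in Adrb1+/m;PS19 mice, and none of the 6 was called. Sox6 and the microglia score had r = 0.79 and rho = 0.71 (exact permutation p = 0.0164 and 0.0576, adjusted p = 0.219 and 0.432), and r was 0.61 without the 2 mice farthest from the median, m665 and m661. Dlx1 had r = 0.74 and rho = 0.79 (exact permutation p = 0.0446 and 0.0279, adjusted p = 0.422 and 0.335) with the astrocyte score. With the precursor score Dlx1 had r = 0.74 and rho = 0.64 (exact permutation p = 0.0494 and 0.0962, adjusted p = 0.422 and 0.525). These 2 values of r were 0.55 and 0.52 without the 2 farthest mice. The part of glial RNA in the levels of these 3 genes was not tested.

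Lamp5 went with the excitatory neuron score, with r = 0.79 and rho = 0.83 (exact permutation p = 0.0151 and 0.0154, adjusted p = 0.219 and 0.327), but r was 0.44 without the 2 mice farthest from the median, m665 and m658, on which the relation rests. With the thalamus score (Tcf7l2, Prkcd, Lef1, Synpo2 and Slitrk6) Lamp5 had r = -0.78 and rho = -0.71 (exact permutation p = 0.0161 and 0.0576, adjusted p = 0.219 and 0.432), and r was -0.66 without the 2 mice farthest from the median, m660 and m658. Calb2 had r = 0.72 and rho = 0.76 (exact permutation p = 0.0446 and 0.0368, adjusted p = 0.422 and 0.339) with the olfactory bulb list, but r was 0.35 without the 2 mice farthest from the median, m668 and m671, so this relation rests on those mice. The olfactory bulb markers Cdhr1, Doc2g, Eomes and Th summed to 8.27 to 32.0 CPM over the mice, with the highest sum in m668, the mouse with the most Calb2. In all, 13 of the 120 relations had an unadjusted exact permutation p under 0.05.

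Between the members themselves, 4 of 45 pairs had an unadjusted exact permutation p under 0.05 and 0 passed adjustment over the 45 pairs. By Spearman's rho, 3 pairs had an unadjusted p under 0.05. Calb1 and Erbb4 went in opposite directions, with r = -0.83 and rho = -0.88 (exact permutation p = 0.00751 and 0.00724, adjusted p = 0.261 and 0.326). This r was -0.91 without the 2 mice farthest from the median, m671 and m661. Adarb2 and Dlx1 went together, with r = 0.77 and rho = 0.81 (exact permutation p = 0.0116 and 0.0218, adjusted p = 0.261 and 0.490), and r was 0.91 without the 2 mice farthest from the median, m677 and m665. Sox6 and Adarb2 had r = 0.80 and rho = 0.76 (exact permutation p = 0.0239 and 0.0368, adjusted p = 0.359 and 0.551), but r was 0.48 without the 2 mice farthest from the median, m665 and m659. Pvalb and Sox6 had r = -0.72 and rho = -0.60 (exact permutation p = 0.0407 and 0.132, adjusted p = 0.443 and 0.632). This r was -0.73 without the 2 mice farthest from the median, m668 and m659, and -0.55 without m665.

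Within each set of genes assigned here to a lineage, positive and negative relations over the mice both occurred. The assignment was by gene name, and which cells the RNA of each gene came from was not tested. Among the 3 medial genes Pvalb, Lhx6 and Sox6, r ran from -0.72 to 0.52, with 1 of 3 pairs positive. Among the 4 genes assigned to the caudal lineage, Calb2, Reln, Lamp5 and Adarb2, it ran from -0.73 to 0.61, with 3 of 6 pairs positive. Of the 12 pairs that cross the lineages, 5 were positive, with r from -0.64 to 0.80 and the highest between Sox6 and Adarb2. Mouse m665 held the most Pvalb and Lamp5 and the least Sox6 and Adarb2. Without m665 the r of Sox6 and Adarb2 was 0.57, and that of Lamp5 and Adarb2 moved from -0.73 to -0.11. That mouse also had the largest library, and r with the total count was 0.58 for Pvalb, -0.65 for Adarb2 and -0.79 for Reln, the last with an exact permutation p of 0.0269 and an adjusted p of 0.236 over 10 relations. Spearman's rho with the total count was 0.48 for Pvalb, -0.64 for Adarb2 and -0.48 for Reln (exact permutation p = 0.243, 0.0962 and 0.243). Without m665 and m661, the largest libraries, r was 0.29, 0.14 and -0.80.

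**Figure D5:**
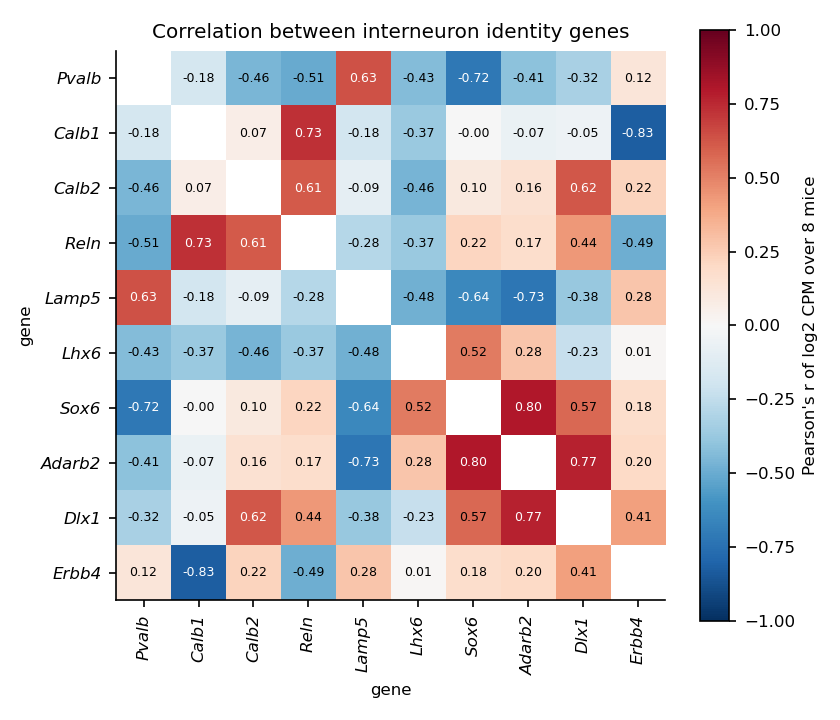
Pearson's r of log2 CPM over the 8 mice for each pair of the 10 genes (both axes), in colour and as numbers. Calb1 and Erbb4 (-0.83) and Pvalb and Sox6 (-0.72) are the opposed pairs with an unadjusted p under 0.05, and Sox6 and Adarb2 (0.80) and Adarb2 and Dlx1 (0.77) the pairs that go together with one.

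The sequence before the start of 4 of these genes is shown because Pvalb varied most for its abundance among the members with an entry, Sox6 went with Adarb2 and against Pvalb, and Erbb4 went against Calb1. The stretches are those bases of RefSeq's promoter windows (build GRCm38.p6) that lie before the gene as the count table places it. They are chr15:78206401-78206650 for Pvalb, chr7:116038797-116038994 for Sox6 and chr1:69108060-69108309 for Erbb4, all on the minus strand, and chr13:8202616-8202865 on the plus strand for Adarb2. Capitals mark matches to the homeodomain core TAATTA, to the SOX core AACAAT, which reads ATTGTT on the other strand, and to TATAAA, the core of the TATA box, searched on both strands. Each stretch reads 5′ to 3′ along the strand of its gene.
Pvalb: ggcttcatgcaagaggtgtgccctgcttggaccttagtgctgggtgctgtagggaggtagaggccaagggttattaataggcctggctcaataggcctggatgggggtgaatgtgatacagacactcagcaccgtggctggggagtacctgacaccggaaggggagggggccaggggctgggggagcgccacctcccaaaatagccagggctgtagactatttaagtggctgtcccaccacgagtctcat
Sox6: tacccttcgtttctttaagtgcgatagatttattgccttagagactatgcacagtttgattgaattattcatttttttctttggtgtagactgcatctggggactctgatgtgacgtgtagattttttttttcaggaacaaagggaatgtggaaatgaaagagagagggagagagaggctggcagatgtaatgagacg
Adarb2: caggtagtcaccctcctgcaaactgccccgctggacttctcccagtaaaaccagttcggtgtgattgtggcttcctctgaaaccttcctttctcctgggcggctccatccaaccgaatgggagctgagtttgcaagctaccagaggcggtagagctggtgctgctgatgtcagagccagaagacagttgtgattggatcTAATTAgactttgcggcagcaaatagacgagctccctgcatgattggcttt
Erbb4: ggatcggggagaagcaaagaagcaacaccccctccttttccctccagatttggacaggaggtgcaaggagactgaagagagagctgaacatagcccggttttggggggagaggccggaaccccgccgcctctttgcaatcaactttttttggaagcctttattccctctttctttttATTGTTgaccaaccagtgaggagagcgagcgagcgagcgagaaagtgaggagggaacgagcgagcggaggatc
The Adarb2 stretch holds TAATTA, which is its own reverse complement, and the Erbb4 stretch holds ATTGTT. The Pvalb stretch and the Sox6 stretch, which is 198 bases long, hold none of the 3 motifs. RefSeq windows at starts inside Sox6 and Lhx6 hold AACAAT, 1 of those of Sox6 holds TATAAA, and none of these is printed. Over all 32851 promoter windows of 250 bases, TAATTA occurred in 4.84%, AACAAT in 9.42% and TATAAA in 12.4%, either strand counted. The GC content was 39.4% in the Sox6 stretch, 52.8% in that of Adarb2, 54.0% in that of Erbb4 and 58.4% in that of Pvalb, and the median over all windows was 52.4%. RefSeq windows were matched for 8 of the 10 genes by symbol, all except Calb1 and Calb2.

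For each gene, up to 2 genes with the most similar pattern over the 8 mice (genotypes centred, Pearson's r, 12134 genes with at least 5 CPM) were listed as a description. With 12134 genes and 8 mice, each of the 10 members had such genes, so the values are no mark of any one of them. For Pvalb they were Mog, a myelin protein, and Eif2b3, a subunit of a translation initiation factor, with r of 0.99 and 0.98. For Calb1 they were Ankrd13a and Lrrc10b, with r of 0.99 and 0.98, for Calb2 Usp37 and 9530077C05Rik (0.96 and 0.95) and for Reln 6530402F18Rik and Hrk (0.98 and 0.97). Lamp5 was nearest to Nfe2l3 and to Scn1a, a sodium channel of fast-spiking cells (0.97 and 0.96), and Lhx6 to Dbndd1 and Hdac6 (0.98 and 0.97). Sox6 was nearest to Tmem143 and the chaperone Hspa5 (0.99 and 0.98), Adarb2 to the tubulin Tubb2b and the pseudogene Gm9616 (0.98 and 0.98), Dlx1 to Sema4g and Slco2b1 (0.99 and 0.98) and Erbb4 to Srgn (0.97).

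The partners of these genes were compared between the genotypes by lists. The tested genes common to GABA neurons numbered 8, among them Gad1, Gad2, Slc32a1, Dlx2, Dlx5 and Dlx6. Of them, 2 were called higher and 0 lower in Adrb1+/m;PS19 mice at an unadjusted p under 0.05. The shares of all genes tested were 1.42% higher and 1.37% lower. The GABA list was chosen with earlier results of these data known, so the count is no test. The median difference of the 8 genes on the log2 scale was 0.06, and it ran from 0.026 without m671 to 0.17 without m661 and 0.18 without m668. Gad2, a GABA-synthesizing enzyme, was at 248, 263, 239 and 239 CPM in the PS19 mice and at 282, 270.3, 279.6 and 337 CPM in the Adrb1+/m;PS19 mice. These ranges did not overlap, as in 2.02% of all genes tested. Gad2 was higher by 0.24 ± 0.07 (SE) on the log2 scale (unadjusted edgeR p = 0.00325, exact permutation p = 0.0286, the smallest that 4 against 4 allows). Slc32a1, the vesicular GABA transporter, was higher by 0.18 ± 0.07 (SE) on the log2 scale (unadjusted edgeR p = 0.0294, exact permutation p = 0.0571), with means of 102 ± 8.62 CPM in PS19 and 116 ± 9.73 CPM in Adrb1+/m;PS19 mice (SD, n = 4 each). Neither had an adjusted edgeR p under 0.05. Gad2 stayed under an unadjusted 0.05 with any 1 mouse left out, and Slc32a1 did not without m677, m665, m659 or m671, at differences of 0.12 to 0.17. Gad1, the other GABA-synthesizing enzyme, was at 0.06 ± 0.05 (SE) on the log2 scale and was not called. Markers of basal forebrain cholinergic neurons (Chat, Slc5a7, Slc18a3, Lhx8, Ngfr and Gbx1) were higher as well. Of these, 6 of 6 were called, beside 1.42% of all genes in that direction. This list was chosen with earlier results of these data known, so the count is no test. Its summed level was 15.2 to 30.2 CPM in PS19 and 32.0 to 44.5 CPM in Adrb1+/m;PS19 mice. Over the mice Lhx8 had 0.944 to 4.41 CPM and Gbx1 had 0.735 to 3.59 CPM. Lhx8, Slc5a7 and Gbx1 were called with any 1 mouse left out. Chat was not called without m677, m671 or m658 (0.36 to 0.53 on the log2 scale), Ngfr without m677, m665 or m661 (0.54 to 0.56) and Slc18a3 without m677, m665 or m658 (0.55 to 0.69). The part of these cells, or of striatal GABA neurons, in the difference of Gad2 and Slc32a1 was not tested.

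Other genes of the medial lineage (14 tested, median difference on the log2 scale -0.0040) and of the caudal lineage (12 tested, median -0.07) held 0 called genes each. Kcnc1, a potassium channel of fast-spiking cells, had 256 ± 13.2 CPM in PS19 and 264 ± 13.2 CPM in Adrb1+/m;PS19 mice (SD, n = 4 each), and Cnr1, the cannabinoid receptor, had 206 ± 35.4 CPM in PS19 and 204 ± 27.1 CPM in Adrb1+/m;PS19 mice (SD, n = 4 each). Satb1 and Kcnc2, the next in abundance of the medial list, were at -0.10 ± 0.12 and -0.03 ± 0.06 (SE) on the log2 scale, and Cxcl14 and Igfbp6 of the caudal list at 0.05 ± 0.06 and -0.15 ± 0.08. The neuregulin and ErbB genes that surround Erbb4 (11 tested, median 0.0035) held 0 called genes, with Nrg3, a neuregulin, at -0.01 ± 0.07 (SE) on the log2 scale, Tgfa, a ligand of the EGF receptor, at 0.13 ± 0.15 and Egfr, that receptor, at 0.03 ± 0.09. Ereg was at 0 counts in every mouse and Areg was too low to test. Of the 9 reelin pathway genes, Vldlr, a reelin receptor, was called higher, with means of 92.2 ± 8.33 CPM in PS19 and 104 ± 5.77 CPM in Adrb1+/m;PS19 mice (SD, n = 4 each) and a difference of 0.17 ± 0.07 (SE) on the log2 scale (unadjusted edgeR p = 0.0281, exact permutation p = 0.0857). Without m677, m659 or m658 Vldlr was not called, at 0.12 to 0.15 on the log2 scale. The median of that list was -0.0088. The 14 EF-hand proteins tested held 0 called genes, with a median of -0.0094. Among 14 paralogs of the members, with a median of 0.05, Lhx8 was called higher and Lhx2 lower, by 1.23 ± 0.26 and -0.24 ± 0.08 (SE) on the log2 scale (unadjusted edgeR p = 0.000391 and 0.00803, exact permutation p = 0.0286 and 0.0571). Lhx8, a LIM homeodomain factor related to Lhx6, is also one of the cholinergic markers. Both stayed under an unadjusted 0.05 with any 1 mouse left out. In all, 5 of 76 distinct genes of these lists were called, or 6.58%, beside 2.80% of all genes tested. The lists were chosen with earlier results of these data known, so the contrast of these shares is no test.

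Of the other cells, 3 of 8 excitatory neuron genes (Slc17a7, Neurod6 and Tbr1) were called lower in Adrb1+/m;PS19 mice, beside 1.37% of all genes in that direction, and the median over that list was -0.14 on the log2 scale. That list, too, was chosen with earlier results of these data known, so the count is no test. Of the 3 genes, Neurod6 was called with any 1 mouse left out. Slc17a7 was not called without m668, m659, m660 or m658 (-0.17 to -0.14 on the log2 scale). Tbr1 was not called with DESeq2's size factors or without m665, m659, m661, m660 or m658 (-0.14 to -0.098). The lists of oligodendrocyte precursors, oligodendrocytes, astrocytes, microglia, endothelial cells, striatal neurons, Cajal-Retzius cells, dentate gyrus, thalamus and olfactory bulb held 0 called genes each, with medians of -0.04, -0.02, 0.05, 0.03, 0.0029, 0.32, -0.12, -0.07, 0.23 and -0.35. Single mice decided several of these medians, which were near 0 for glia. That of the olfactory bulb was 0.27 without m668 and -0.08 in limma-voom, that of Cajal-Retzius cells 0.18 without m677, that of the dentate gyrus 0.065 without m665 and that of the thalamus 0.096 without m658. With each mouse left out the median of the precursors ran from -0.078 to 0.039, that of oligodendrocytes from -0.093 to 0.063, that of astrocytes from -0.078 to 0.12, that of microglia from -0.078 to 0.17 and that of endothelial cells from -0.068 to 0.064. Cajal-Retzius cells, which make reelin in development, were represented by Trp73 and Ebf3 alone, with a summed level of at most 3.92 CPM, since Lhx1 and Lhx5 were too low to test.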

How the data were processed

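Cortical RNA of 4 PS19 and 4 Adrb1+/m;PS19 mice was sequenced as Illumina paired-end reads. The authors aligned the reads to GRCm38 with HISAT2 (version 2.0.5), counted them with featureCounts (version 1.5.0-p3) and deposited raw counts per Ensembl gene without normalization. The deposited gene length column gives bases, in a unit other than counts. Groups were taken from the genotype labels.

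Genes kept by filterByExpr were normalized with TMM factors and compared with edgeR 4.0.16 (quasi-likelihood test, 2-sided, no covariates) in R 4.3.3, and p-values of all genes tested were adjusted by Benjamini and Hochberg's method. A gene was called at an unadjusted p-value under 0.05, the threshold of the study. Alternatives were DESeq2 1.42.0, limma-voom (limma 3.58.1), DESeq2's size factors, no count filter beyond 1 count, and each mouse left out. Correlations used log2 CPM (prior count 2) and exact permutation over 40320 orders of the mice. The script was tested on simulated counts. Intervals are those of the edgeR fit. The labels give separate mice but no litter or batch.

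The members, the 7 gene lists and the 12 marker lists of other cells were chosen with earlier results of these data known. All 10 members are named. From each list the called genes and up to 3 of the most abundant are named, and for each member the 2 genes most like it, except some genes that are not reported here. Single genes of the medial lineage, oligodendrocytes and striatum were set against Pvalb, Calb1 and Erbb4 after the list relations were seen. The symbol Dlx6os1 stands on more than 1 row and was left out.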

Additional observations from a re-analysis of the deposited data

Results flagged for a closer look

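In groups of 4 mice, a value was noted where its gap to the nearest mouse passed Dixon's 95% critical value for the share of the group's range. This was so in 4 of 58 groups checked, and chance gives about 1 in 20. Reln in PS19 mouse m668 (129 CPM against 97.6 to 101 in the other PS19 mice) had a gap of 0.865 of the range. Sox6 in Adrb1+/m;PS19 mouse m658 (31.4 CPM against 28.9 to 29.3) had a gap of 0.839. The score of the reelin pathway genes in m658 was 0.05, against -0.02 to -0.01 in the other Adrb1+/m;PS19 mice, a gap of 0.858. The score of the dentate gyrus genes in m660 was -0.44, against 0.02 to 0.07, a gap of 0.884.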

How the results depend on the processing

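Over the alternatives run, 5 to 6 of the 9 neighbour pairs in the order of levels did not overlap, and 4 mice per genotype limit all intervals. No paired analysis was possible because every mouse has a number of its own and no litter or batch is named. Without the count filter, edgeR called 1366 genes at an unadjusted p under 0.05 in place of 481, 66 genes at an adjusted p under 0.05 in place of 0, and 2 of the 10 members, Reln and Lamp5, in place of 0. The cause was not tested. With each mouse left out, 431 to 674 genes were called, 0 to 2 had an adjusted p under 0.05 (1 without m661 and 2 without m658), 0 to 1 members were called (Calb2 without m660) and 3 to 7 genes of the 7 lists, the fewest without m677 and the most without m661, in place of 5. Without the count filter 7 list genes were called. DESeq2, limma-voom and DESeq2's size factors gave 0 members and 5 list genes each. Of 120 recomputed log2 fold changes of the members, 13 had the other sign. With each mouse left out they ran from -0.083 to 0.17 for Pvalb, from -0.064 to 0.067 for Calb1, from -0.37 to -0.052 for Calb2, from -0.20 to -0.061 for Reln, from -0.17 to -0.022 for Lamp5, from 0.013 to 0.11 for Lhx6, from -0.093 to 0.021 for Sox6, from -0.070 to 0.051 for Adarb2, from -0.13 to -0.048 for Dlx1, from -0.072 to 0.0014 for Erbb4. Without TMM factors, 3 of 45 pairs of members and 14 of 120 relations with other cells had an unadjusted exact permutation p under 0.05, in place of 4 and 13.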
